A study of Homo sapiens with 8 samples.

Results

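Chromosome 20 was examined in consecutive bins of 100 kb over its full length in scEdU-seq libraries of RPE-1 hTERT cells. Its 644 bins are part of 30307 such bins on the autosomes and X. The first 25 Mb, called the short-arm segment here, hold 250 bins; the stretch from 32 Mb to the end, the long-arm segment, holds 324; the 70 bins between them span the centromere. These limits were set with earlier results of the same data known. RPE-1 hTERT is a retinal pigment epithelial line immortalised with telomerase. The 2 groups were wild-type (WT) cells and CFAP20-KO cells, with no other allele named in the labels, and both received 10 µM EdU for 15 min, with no further treatment, before ethanol fixation and sorting. Each of 8 plates held cells of both genotypes, which gives 8 WT and 8 CFAP20-KO libraries. The labels do not tell whether the knockout is 1 clone or the plates are separate cultures. P-values then reflect only the spread from plate to plate, which may be technical. DNA fragments show neither the loss of CFAP20 nor markers of the cell type, and neither label could be checked.

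EdU is a thymidine analogue that is built into DNA only where it is being copied, so each sequenced fragment of a cell marks DNA made during the pulse. Human chromosomes are copied in a set order: gene-rich, transcribed domains early in S phase, gene-poor domains late. A domain's share of labelled molecules depends on how many copies a cell holds, on how many sampled cells are copying it, and on how well reads map there. CFAP20 is named for cilia and flagella, and the series links it to RNA polymerase II stalled ahead of replication forks.

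The plates held 26148975 fragments from 3023 wells. Cells with at least 1000 autosomal molecules were used: 1290 WT and 1140 CFAP20-KO, 129 to 190 per library. They gave 514688 molecules on chromosome 20, with 5353 to 26141 per library on the short-arm segment and 8058 to 24606 on the long-arm segment. Each of the 378 well barcodes recurs in 2 or more plates, and a cell was identified by plate and barcode together. A cell's place in S phase was its rank, from 0 (early) to 1 (late), on an axis found from all autosomes; leaving chromosome 20 out changed the order little (r = 0.9999 across cells). Timing of a bin is the molecule-weighted mean of these ranks.

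The promoters of 3 genes are shown because these genes mark the 2 arms and the border in the results. MACROD2, a mono-ADP-ribosylhydrolase gene of 2058 kb on the short arm, and PTPRT, a receptor tyrosine phosphatase gene of 1158 kb on the long arm, are both late-replicating and were measured from 18974 and 12000 molecules. ZNF337, a zinc-finger gene, is the last protein-coding gene before the breakpoint. Each sequence runs 5′ to 3′ from 250 bases before to 50 bases after the RefSeq gene start on GRCh38.p14, with CG pairs in capitals. MACROD2 is on the plus strand (chr20:13995266-13995565); PTPRT (chr20:43189857-43190156) and ZNF337 (chr20:25696804-25697103) are on the minus strand.
MACROD2: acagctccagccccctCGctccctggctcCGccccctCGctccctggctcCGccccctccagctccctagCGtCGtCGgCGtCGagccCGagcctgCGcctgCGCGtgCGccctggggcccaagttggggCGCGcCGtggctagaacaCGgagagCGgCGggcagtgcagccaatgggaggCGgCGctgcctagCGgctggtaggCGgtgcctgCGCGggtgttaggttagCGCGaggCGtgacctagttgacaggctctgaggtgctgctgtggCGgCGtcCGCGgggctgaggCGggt
PTPRT: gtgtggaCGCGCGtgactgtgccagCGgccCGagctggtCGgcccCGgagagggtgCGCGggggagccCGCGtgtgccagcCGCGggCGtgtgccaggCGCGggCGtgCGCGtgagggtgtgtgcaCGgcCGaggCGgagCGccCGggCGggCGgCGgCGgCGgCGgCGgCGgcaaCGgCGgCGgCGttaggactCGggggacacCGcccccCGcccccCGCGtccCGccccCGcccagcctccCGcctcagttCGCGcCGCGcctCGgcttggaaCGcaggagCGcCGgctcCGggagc
ZNF337: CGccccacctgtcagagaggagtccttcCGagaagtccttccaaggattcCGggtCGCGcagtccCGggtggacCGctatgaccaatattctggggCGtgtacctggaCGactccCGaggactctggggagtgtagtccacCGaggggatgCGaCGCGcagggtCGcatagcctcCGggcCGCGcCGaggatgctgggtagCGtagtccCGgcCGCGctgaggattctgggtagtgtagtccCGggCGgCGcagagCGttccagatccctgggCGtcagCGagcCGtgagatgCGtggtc
These windows hold 34, 53 and 31 CG pairs. Over all 27305 promoters of the same length in the table the median was 14, and 56.0% held at least 10; over 114 promoters of the short-arm segment the median was 20.5, and over 229 of the long-arm segment 26. Both late genes thus have starts richer in CG pairs than the median promoter of their segment.

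The short-arm segment held fewer labelled molecules in CFAP20-KO than in WT, while the long-arm shares of the genotypes overlapped. In WT libraries the short-arm segment took 0.935% to 1.05% of autosomal molecules (median 0.969%), and in CFAP20-KO 0.579% to 0.688% (median 0.649%), so that every knockout library lay below every WT library. The means were 0.980% ± 0.045 and 0.642% ± 0.036 (SD, n = 8 libraries each). Within plates the log2 ratio of CFAP20-KO to WT was -0.61 ± 0.08 (SD, n = 8 plates), with plates from -0.71 to -0.44. The long-arm segment took 0.993% to 1.07% in WT (median 1.02%) and 0.942% to 1.10% in CFAP20-KO (median 1.05%), and the groups overlapped. Its log2 ratio was 0.02 ± 0.06, below 0 in 3 of 8 plates. The segments' log2 ratios differed by -0.63 ± 0.12. No test was made of these ratios, because the segment limits came from earlier results of the same data. Giving each cell the same weight in place of each molecule reduced the short-arm log2 ratio to -0.34 ± 0.10, which the classes of cells by label further on describe.

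**Figure D1:**
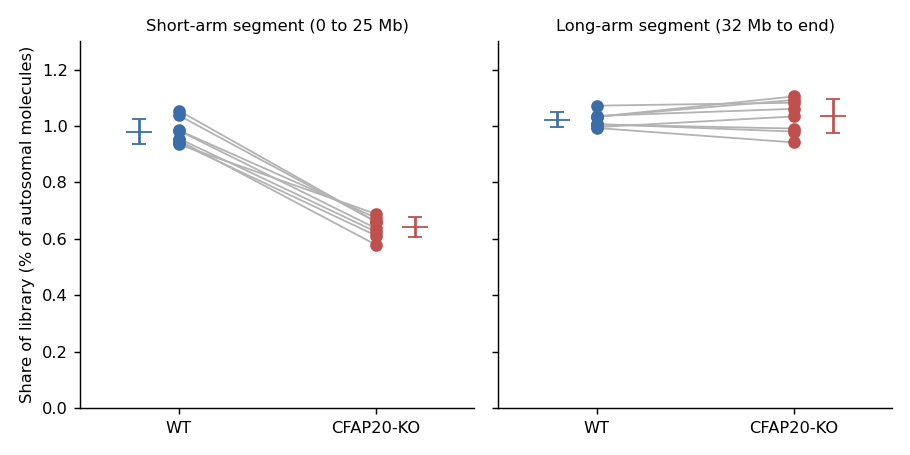
Share of autosomal molecules (%, vertical axis) of the short-arm segment (left) and the long-arm segment (right) in 8 WT and 8 CFAP20-KO libraries; points are libraries, grey lines join the libraries of 1 plate, and bars beside the points show mean and SD. All short-arm lines fall from WT (0.935% to 1.05%) to CFAP20-KO (0.579% to 0.688%), while long-arm lines cross.

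Read as a level, with 1 being the median autosomal bin of the library, the short-arm segment stood at 1.09 ± 0.05 in WT and 0.737 ± 0.060 in CFAP20-KO (SD, n = 8). The long-arm segment stood at 0.876 ± 0.029 and 0.916 ± 0.041. On this scale it was higher in CFAP20-KO in 8 of 8 plates, by 0.013 to 0.086, though the libraries of the genotypes overlapped. The sign of the small long-arm difference thus depends on the scale, since its share was lower in CFAP20-KO in 3 of 8 plates. Early and late bins are not labelled alike, so each bin was also set against autosomal bins of the same timing, leaving out chromosomes 7, 10, 12 and 20. On that scale the short-arm segment was at 1.03 ± 0.05 in WT, close to other bins of its timing, and at 0.660 ± 0.039 in CFAP20-KO. The long-arm segment was at 0.934 ± 0.027 and 0.947 ± 0.036. Fewer copies of a segment and fewer labelled molecules per copy cannot be told apart in these values.

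Along the chromosome the lower level covered the whole of the short-arm segment rather than single bins. In a limma voom fit over all 602 autosomal and X windows of 5 Mb, 5 of 5 short-arm windows fell in CFAP20-KO and 0 of 6 long-arm windows changed, where 5.98% of all windows were called lower and 2.99% higher. The window of 0 to 5 Mb had a log2 ratio of -0.78 ± 0.10 (SE), 5 to 10 Mb -0.67 ± 0.05, 10 to 15 Mb -0.52 ± 0.07, 15 to 20 Mb -0.60 ± 0.06 and 20 to 25 Mb -0.56 ± 0.06. The largest adjusted p-value among these 5 windows was 7.41e-06 (limma, Benjamini-Hochberg over 602 windows). Among long-arm windows, 2 of 6 had an unadjusted p below 0.05: 55 to 60 Mb, at 0.14 ± 0.05 (adjusted p = 0.0503, limma), and 60 to 65 Mb, at 0.11 ± 0.05 (adjusted p = 0.163, limma). With plate as a block the count over all windows rose from 36 lower and 18 higher to 80 lower and 55 higher, and the short-arm count was 5 of 5 again.

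At 100 kb, 64 of 247 short-arm bins with enough molecules fell (25.9%) and none rose, where 1.35% of 27641 bins were called lower and 0.130% higher in the same limma voom fit. Of 318 long-arm bins, 0 fell and 1 rose, while at an unadjusted p below 0.05 there were 22 lower and 16 higher; of 55 bins in between, none was called. At that unadjusted level 193 of 247 short-arm bins were lower. The mean log2 ratio was below 0 in 245 of 247 short-arm bins and 158 of 318 long-arm bins, against 53.4% of all bins. It was below 0 in 8 of 8 plates in 68 short-arm and 3 long-arm bins (2.15% of all bins), and all knockout libraries lay below all WT libraries in 10 and 0 bins (0.322% of all bins). The median log2 ratio was -0.62 over short-arm bins, with 5th and 95th percentiles of -1.12 and -0.23, and 0.00 over long-arm bins. The called count rests on the number of plates: it was 33 without plate 2, 37 without plate 3, 30 without plate 5, 36 without plate 7 and 42 without plate 8.

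The bin with the lowest ratio, chr20:3900001-4000000, overlaps RNF24, a RING-finger gene, and held few molecules. Its level was 0.275 ± 0.085 in WT and 0.0848 ± 0.0534 in CFAP20-KO (SD, n = 8), lower in 8 of 8 plates, with a log2 ratio of -1.72 ± 0.33 (SE; adjusted p = 0.00112, limma). The next lowest, chr20:700001-800000, was better filled, at 1.21 ± 0.27 in WT and 0.486 ± 0.207 in CFAP20-KO, with a log2 ratio of -1.44 ± 0.25 (adjusted p = 0.000157, limma). The long-arm bin that rose, chr20:59400001-59500000, went from 0.990 ± 0.265 to 1.78 ± 0.40, higher in 8 of 8 plates, with a log2 ratio of 0.80 ± 0.20 (adjusted p = 0.0190, limma). Its neighbours on either side had log2 ratios of 0.42 and 0.30 and were not called. Single bins were named here after their values were seen.

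**Figure D2:**
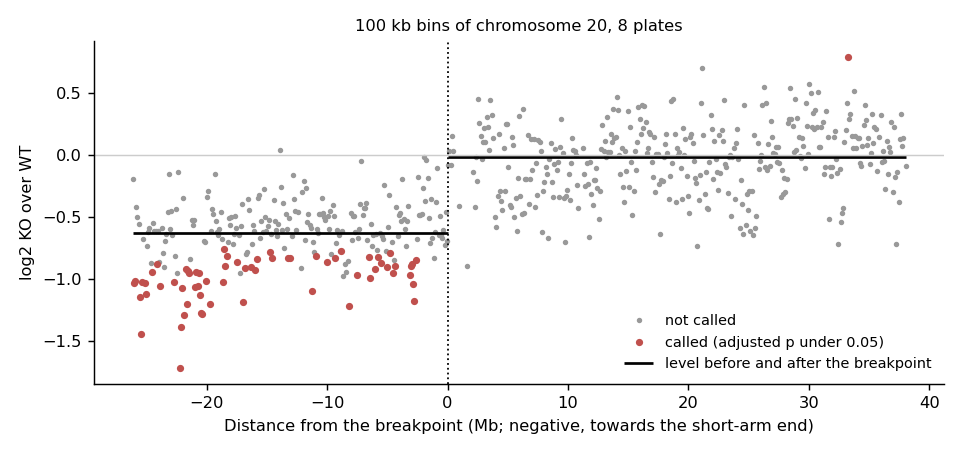
log2 ratio of CFAP20-KO to WT (vertical axis) for the 620 tested bins of 100 kb on chromosome 20, against distance from the breakpoint in Mb (horizontal axis, negative towards the end of the short arm); red points passed the limma test, grey points did not, and black lines give the mean before (-0.63) and after (-0.02) the breakpoint. The 64 called short-arm bins all lie left of the dotted line, and 1 long-arm bin was called higher.

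The breakpoint that best divides the 620 bins into 2 levels lay between positions 26200000 and 26200001. The mean log2 ratio was -0.63 before it and -0.02 after it, and the step took up a share of 0.545 of the variation between bins. The last bin before it (chr20:26100001-26200000) had a log2 ratio of -0.69 ± 0.21 (SE), and the first after it (chr20:26200001-26300000) -0.08 ± 0.21. Single plates put the step between 23700001 and 32500001 (SD 2584570 bases, n = 8), and each took up a share between 0.129 and 0.256 of the variation. They do not fix the position closely, and no interval was computed for the pooled one. The pooled position was the same without any 1 plate, in cells of at least 5000 molecules, and with bins set against others of the same timing. These runs reuse most of the same molecules, so their agreement does not measure its precision. With bins of 500 kb the position moved to 28500001. A second step, when one was allowed, fell at 54400001 and raised the log2 ratio from -0.06 to 0.11.

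The stretch around the step is poorly resolved. The 1 Mb from 27 Mb held 1256 molecules, at a level of 0.173 ± 0.035 in WT and 0.123 ± 0.036 in CFAP20-KO. Though past the step, it had a log2 ratio of -0.55 ± 0.33 (SD, n = 8 plates), with CFAP20-KO lower in 8 of 8 plates. The 1 Mb from 26 Mb, which holds the step, was at -0.22 ± 0.17, lower in 7 of 8 plates. The 1 Mb from 31 Mb held 31791 molecules, at 3.6 ± 0.68 in WT and 4.21 ± 1.13 in CFAP20-KO. A single bin there, chr20:31000001-31100000, stood at 21.8 times the median bin in WT. The chromosome holds 2 of the 34 autosomal bins with more than 3 times the molecules of the median autosomal bin. From 28 to 30 Mb the levels of CFAP20-KO (0.946 and 1.67) were no longer below those of WT (0.855 and 1.4), and the log2 ratios were 0.10 ± 0.28 and 0.19 ± 0.35 (SD, n = 8 plates). ZNF337, from 25673195 to 25696853, lies in a bin at 0.956 in WT and 0.633 in CFAP20-KO, with a log2 ratio of -0.64 ± 0.24 (SE; adjusted p = 0.185, limma). The first gene after the step in the RefSeq table, LOC124904970 at 30813427, lies in a bin with a ratio of 0.06 ± 0.16 (SE).

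**Figure D3:**
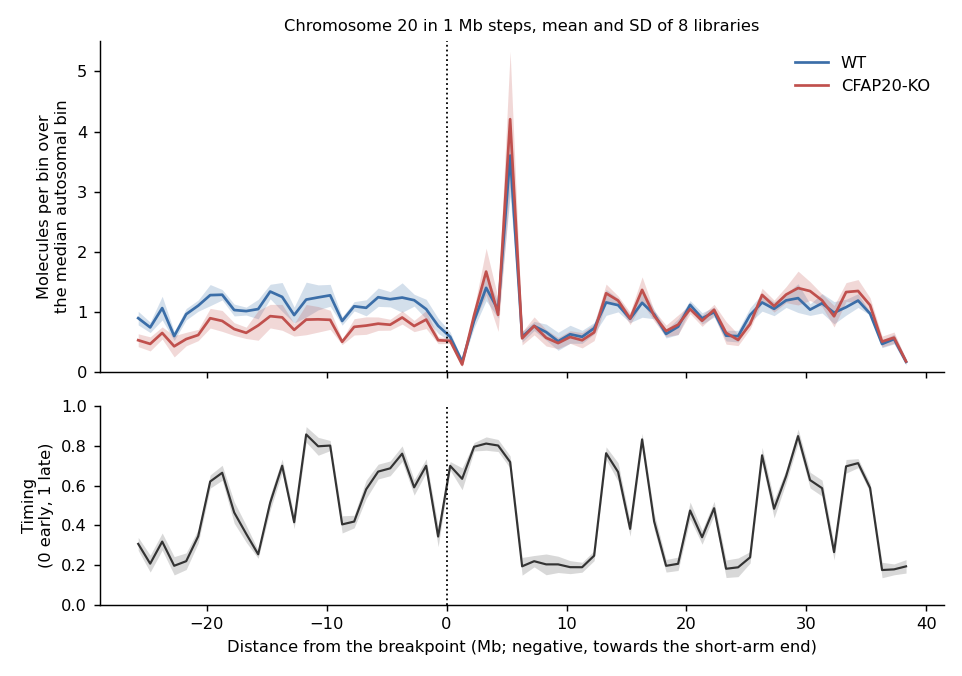
Top, molecules per 100 kb bin over the median autosomal bin (vertical axis), averaged in 1 Mb steps, for WT (blue) and CFAP20-KO (red), mean (line) and SD (band) of 8 libraries; bottom, timing from 0 (early) to 1 (late), mean and SD of 8 plates; the horizontal axis is the distance from the breakpoint in Mb. The knockout line runs below the WT line left of the dotted line. To the right the bands of the 2 lines mostly overlap. The knockout line is still lower in the 1 Mb from 27 Mb (0.123 against 0.173). In the 1 Mb from 34 Mb it is lower in 8 of 8 plates (0.569 ± 0.136 against 0.664 ± 0.133). In the 1 Mb from 56 Mb it lies above the WT band (1.35 ± 0.16 against 1.04 ± 0.10), lower in 0 of 8 plates. The peak at 3.6 in WT and 4.21 in CFAP20-KO stands just past the centromere.

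Genes followed the segment they lie in. Over whole gene bodies, 72 of 171 short-arm genes had enough molecules for the test, and 21 of them fell and none rose, against 1.26% lower and 0.194% higher of 9264 genes in the limma voom fit. The 72 log2 ratios had a median of -0.70, and none was above 0. Of 133 tested among 336 long-arm genes, none was called by limma (8 lower and 4 higher at an unadjusted p below 0.05), 76 were below 0, and the median was -0.04. Between the segments 11 of 30 genes were tested, of which 9 were below 0 and none was called, with a median of -0.53. The median over all tested genes was -0.07. Overlapping genes share molecules, and genes of 1 segment are not independent of each other.

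Large genes gave the most precise values. MACROD2 had a log2 ratio of -0.53 ± 0.10 (SE; adjusted p = 0.000448, limma), while PTPRT, of like timing on the other arm, had 0.22 ± 0.09 (adjusted p = 0.321, limma). PLCB1 and PLCB4, which encode phospholipase C enzymes, had -0.60 ± 0.11 and -0.79 ± 0.14, and both fell (adjusted p = 0.000178 and 0.000258, limma). RALGAPA2, a Ral GTPase-activating subunit, fell with -0.79 ± 0.14, SLC24A3, a sodium, potassium and calcium exchanger, with -0.55 ± 0.12, and KIF16B, a kinesin, with -0.55 ± 0.14. Across the centromere CDH4, a cadherin, had 0.14 ± 0.10, TSHZ2, a zinc-finger gene, 0.09 ± 0.11, and EYA2, a developmental phosphatase, -0.42 ± 0.14 (adjusted p = 0.120, limma). SULF2, a heparan sulfatase, had -0.47 ± 0.20 (adjusted p = 0.306, limma) and PREX1, a Rac exchange factor, -0.18 ± 0.16. None of the 6 large long-arm genes passed, and 3 of them were below 0.

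Gene groups were read from the 100 kb bin of each member's middle, and members that overlap one bin share its value. Over all groups, 21 of 21 short-arm members had a ratio below 0, with a median of -0.64, and 3 fell. Of all tested short-arm bins, 245 of 247 were below 0 and 25.9% were called lower, against 53.4% and 1.35% of bins genome-wide. The counts of members therefore reflect the segment and say nothing particular about the groups. Of 29 measured long-arm members 14 were below 0, with a median of 0.00, and none was called. The 2 members between the segments were below 0 as well, and neither was called. GINS1, before the breakpoint, had -0.64 ± 0.29 (SE), and TPX2, after it, -0.50 ± 0.27. These groups were drawn up with earlier results known. Among the replication and cell-cycle genes of the short arm, 0 of 5 passed: PCNA, the sliding clamp of DNA polymerases, had -0.52 ± 0.25 (SE), MCM8, a helicase for repair, -0.69 ± 0.23, and SLX4IP, a partner of the SLX4 nuclease scaffold, -0.32 ± 0.24, while CDC25B, a mitotic phosphatase, and CENPB, a centromere protein, share a bin at -0.95 ± 0.33. Their 9 counterparts on the long arm had a median of -0.12, and none passed: E2F1, a transcription factor of S-phase genes, had -0.32 ± 0.24, TOP1, topoisomerase I, -0.12 ± 0.23, RTEL1, a helicase for telomeres, -0.38 ± 0.28, and AURKA, a mitotic kinase, 0.50 ± 0.20.

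Genes of RNA polymerase II and RNA gave -0.32 ± 0.23 for XRN2, the nuclease of transcription termination, and -0.64 ± 0.22 for CRNKL1, a splicing factor, on the short arm. Of the 4 long-arm genes, 0 were below 0 and the highest value was 0.50. TAF4, a TFIID subunit, had 0.15 ± 0.23, and PRPF6, a splicing factor, shares with the elongation factor gene TCEA2 a bin at 0.14 ± 0.28. None of these passed. In the signalling and development group, 0 of 5 short-arm members passed, among them JAG1, a Notch ligand, at -0.67 ± 0.24, and PAX1, a transcription factor, at -0.85 ± 0.25. On the long arm 0 of 6 measured members passed, with a median of -0.05, a highest value of 0.23 and 3 below 0. The lowest of these was GNAS, the stimulatory G-protein subunit, at -0.53 ± 0.23. SRC, a tyrosine kinase gene of the long arm, held 1 molecule in all plates and was not measured. The neuronal group had 2 of 3 short-arm members called, where 25.9% of all short-arm bins were: SNAP25, a vesicle fusion protein, with a bin at 0.995 ± 0.30 in WT and 0.540 ± 0.133 in CFAP20-KO (-0.92 ± 0.24, adjusted p = 0.0284, limma), and PRNP, the prion protein, at 1.12 ± 0.24 and 0.667 ± 0.326 (-0.93 ± 0.25, adjusted p = 0.0357, limma). SYNDIG1, the synapse gene nearest to the border in this group, had -0.18 ± 0.21. All 4 long-arm members of the group were below 0, with a median of -0.24 and a lowest value of -0.72, and none passed.

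Among short-arm genes with the lowest ratios over the gene body were VPS16, of endosomal sorting, at -1.74 ± 0.42 from 174 molecules, RNF24 at -1.62 ± 0.39 from 174, and NAPB, a vesicle fusion adaptor, at -1.41 ± 0.33 from 399 (adjusted p = 0.0148, 0.0115 and 0.00862, limma). The highest were SIRPA, a receptor of the signal regulatory family, at -0.08 ± 0.34, APMAP at -0.10 ± 0.33 and PTPRA, a receptor phosphatase, at -0.16 ± 0.20. On the long arm the lowest was CNBD2 at -0.88 ± 0.30 and the highest AURKA at 0.94 ± 0.37, and neither passed (adjusted p = 0.141 and 0.254, limma). These extremes rest on few molecules and wide errors.

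The 2 arms differ in timing. With both genotypes of a plate together, the median bin of the short-arm segment was at 0.501, from 0.159 to 0.873, and 30.5% of 243 bins were under 0.3 and 40.7% at 0.6 or above. The median of the long-arm segment was 0.245, from 0.152 to 0.879, and 55.4% of 312 bins were under 0.3 and 30.1% at 0.6 or above. The long-arm segment also held more genes, 10.4 per Mb against 6.84. The earliest long genes of the short arm were DNAAF9 (0.182 ± 0.046, SD over 8 plates), SLC23A2, a vitamin C transporter (0.201 ± 0.033), and ATRN, attractin (0.216 ± 0.052), and the latest were MACROD2 (0.828 ± 0.043), KIF16B (0.809 ± 0.025) and RALGAPA2 (0.757 ± 0.041). On the long arm DLGAP4 (0.176 ± 0.039) and NFATC2, a transcription factor (0.188 ± 0.040), were among the earliest, and PTPRT (0.822 ± 0.030), PHACTR3 (0.796 ± 0.039) and DOK5 (0.773 ± 0.041) latest. Neighbours in these orders differ by less than the larger SD of the pair, except KIF16B and RALGAPA2.

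No difference in the timing of the short-arm segment passed its test. The median bin stood at 0.507 ± 0.042 in WT (0.449 to 0.577) and 0.514 ± 0.050 in CFAP20-KO (0.467 to 0.609), a difference of 0.007 ± 0.060 (SD, n = 8 plates; two-sided exact sign-flip permutation p = 0.75), and the groups overlapped. The long-arm segment stood at 0.267 ± 0.045 and 0.320 ± 0.065, later in CFAP20-KO in 6 of 8 plates by 0.053 ± 0.055 on average (exact permutation p = 0.0313, adjusted over 3 tests 0.0586). In cells of at least 5000 molecules that difference was 0.008 ± 0.043. The median autosomal bin was at 0.434 ± 0.033 and 0.450 ± 0.041. In the limma fit of timing over 500 kb bins, 10 of 48 short-arm bins were earlier and 9 later in CFAP20-KO, and 9 of 63 long-arm bins earlier and 12 later, where 14.1% of all bins were called earlier and 19.4% later. Shares called on either arm were thus near the 33.5% called in either direction among all 5479 bins.

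Short-arm ratios rose with timing, as ratios did elsewhere, though with a weaker correlation. Short-arm bins under 0.3 had a median log2 ratio of -0.75, those from 0.3 to 0.6 -0.65 and later ones -0.56 (Pearson r = 0.318 across 243 bins, which share libraries). On the long arm the medians were -0.12, 0.04 and 0.13 (r = 0.430 across 312 bins), and on autosomes other than 7, 10, 12 and 20 they were -0.15, -0.06 and 0.15 (r = 0.485 across 20961 bins). After each bin had been set against others of its timing, r was -0.201 on the short arm and -0.065 on the long arm. On the other autosomes it was 0.001, so a reversed trend was left on the short arm.

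The short-arm ratio was below 0 on average at each stage of S phase. With the ordered cells divided into 4 stages of equal size, the short-arm log2 ratio was -0.61 ± 0.16 in stage 1, -0.48 ± 0.28 in stage 2, -0.38 ± 0.17 in stage 3 and -0.76 ± 0.10 in stage 4 (SD, n = 8 plates). It was below 0 in 8, 7, 8 and 8 plates, and all knockout libraries lay below all WT libraries in stages 1, 3 and 4. The long-arm ratios were 0.09 ± 0.09, 0.12 ± 0.16, -0.04 ± 0.19 and -0.00 ± 0.14. Of the 6 pairs of stages, 1 differed on the short arm after adjustment: stage 4 minus stage 3 gave -0.38 ± 0.19 in 8 of 8 plates (exact sign-flip permutation p = 0.00781, the smallest that 8 plates allow; adjusted 0.0469). Label strength differed between the stages as well: cells of at least 5000 molecules numbered 213 WT and 153 CFAP20-KO in stage 1, 29 and 27 in stage 2, 41 and 43 in stage 3, and 200 and 208 in stage 4. Its part in the contrast of stages was not tested.

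Single cells with at least 5000 molecules (483 WT, 431 CFAP20-KO) were set against the molecules expected on each segment from autosomal bins of the same timing in the same cell. The median log2 ratio of short-arm molecules to that expectation was -0.01 in WT and -0.86 in CFAP20-KO, with plate medians from -0.10 to 0.06 and from -0.94 to -0.71, so the plate medians of the genotypes did not overlap. On the long arm the medians were -0.16 and -0.14. The cells themselves overlapped: 90.3% of all pairs of a knockout and a WT cell had the lower short-arm value in the knockout cell, and 93.0% of CFAP20-KO cells lay below the WT median. Taking the point midway between the genotype medians, 33 of 483 WT cells (6.83%) lay below it and 75 of 431 CFAP20-KO cells (17.4%) above it. In cells of at least 20000 molecules these were 15 of 318 (4.72%) and 25 of 169 (14.8%). The median cell held 244 short-arm molecules in WT and 95 in CFAP20-KO, which limits the precision per cell.

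**Figure D4:**
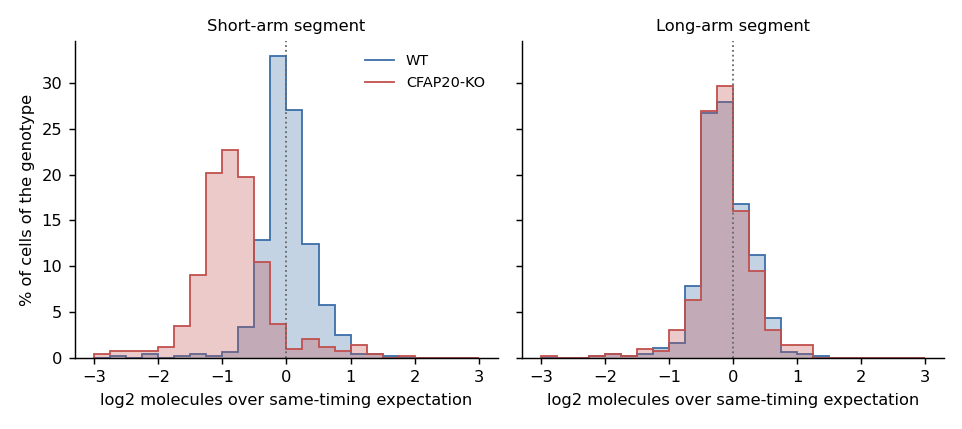
Share of cells (%, vertical axis) by log2 ratio of molecules to the expectation from bins of the same timing (horizontal axis, steps of 0.25), for the short-arm (left) and long-arm (right) segments, in WT (blue, 483 cells) and CFAP20-KO (red, 431 cells). The short-arm medians lie at -0.01 and -0.86, the long-arm medians at -0.16 and -0.14, and a small set of knockout cells lies to the right of 0 on the short arm.

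A minority of knockout cells had short-arm molecules well above their own group. More than 1 log2 unit above the genotype median were 28 of 431 CFAP20-KO cells (6.50%), found in 8 plates, and 5 of 483 WT cells (1.04%); this limit was chosen after the values were seen. As far below the median were 14 CFAP20-KO cells (3.25%) and 7 WT cells (1.45%). Of the 28 knockout cells, 16 were above the knockout median in all 5 windows of 5 Mb and 25 in 4 or 5 of them. Of the 5 WT cells, 1 was above the WT median in all 5 windows and 3 in 4 or 5. Not all of these cells were thus high along the whole segment. The places of the 28 cells in S phase ran from 0.008 to 0.999, with 11 in stage 1 and 12 in stage 4, where 153 and 208 of all 431 knockout cells were; all 5 WT cells were in stage 4, which held 200 of the 483. On the long arm 9 CFAP20-KO cells (2.09%) and 4 WT cells (0.828%) lay as far above. In the 28 cells the chromosome 7 segment from 105 Mb, which was also low in CFAP20-KO, had a median of -0.68, against -0.85 in the other knockout cells. Their median was 17952 molecules per cell, against 17288 in the others, and their long-arm median was -0.12, against -0.15.

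The spread between cells beyond counting error, as the SD of log2 short-arm over long-arm molecules, was 0.746 ± 0.085 in WT (0.622 to 0.883) and 0.864 ± 0.053 in CFAP20-KO (0.787 to 0.932). It was larger in CFAP20-KO in 7 of 8 plates, by 0.118 ± 0.126 (exact sign-flip permutation p = 0.0391, adjusted over 3 tests 0.0586). Counting error was itself larger in CFAP20-KO, 0.216 ± 0.023 against 0.156 ± 0.014. After the course of the ratio through S phase had been removed, the difference was 0.179 ± 0.170 (adjusted exact permutation p = 0.0234). Measured from the 16th to the 84th percentile, which leaves both tails out, it was 0.064 ± 0.108 (adjusted exact permutation p = 0.211).

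The short-arm difference was large in strongly labelled cells and small in weakly labelled ones, a division by molecules per cell made after the equal-weight value was seen. In cells of 300 to below 1000 molecules (250 WT, 232 CFAP20-KO) the short-arm share was 0.785% ± 0.077 in WT and 0.745% ± 0.067 in CFAP20-KO, a log2 ratio of -0.08 ± 0.20 (SD, n = 8 plates) from 2745 molecules. From 1000 to below 5000 (807 and 709 cells) it was 0.859% ± 0.045 and 0.765% ± 0.040, a ratio of -0.17 ± 0.15, lower in 7 of 8 plates. From 5000 to below 20000 (165 and 262 cells) it was 0.934% ± 0.089 and 0.593% ± 0.077, a ratio of -0.66 ± 0.24, with all knockout libraries below all WT libraries. At 20000 or more (318 and 169 cells) it was 1.01% ± 0.07 and 0.662% ± 0.152, a ratio of -0.64 ± 0.24. The knockout library of plate 8 had only 6 cells in this class, with a share of 0.988% and a ratio of -0.22. A single cell among them held 880 short-arm molecules, so the spread in this class is partly that of few cells. The 2 stronger classes were lower in 8 of 8 plates. Most cells are thus in classes with a small difference, and most molecules in classes with a large one. The long-arm ratios were 0.03 ± 0.13, -0.02 ± 0.06, -0.20 ± 0.13 and 0.05 ± 0.11; in the class of 5000 to below 20000 the long arm was also lower in 8 of 8 plates, from -0.45 to -0.04. The difference between classes was not tested.

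**Figure D5:**
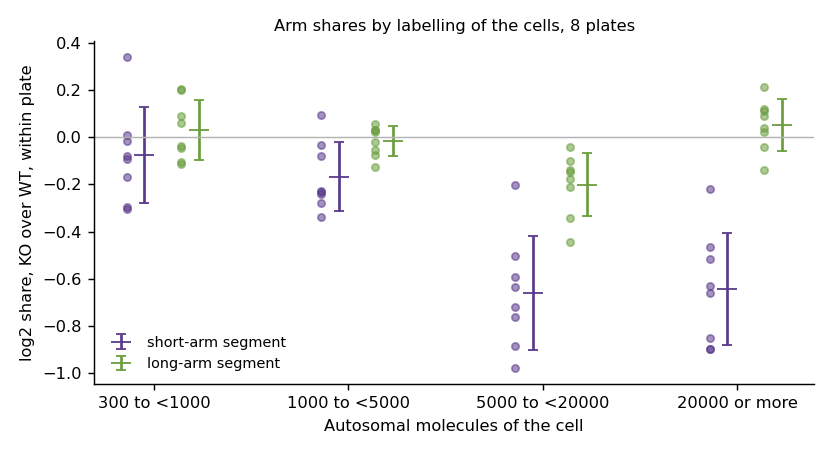
Within-plate log2 ratio of CFAP20-KO to WT shares (vertical axis) of the short-arm (purple) and long-arm (green) segments, for cells grouped by autosomal molecules (horizontal axis); points are 8 plates, bars mean and SD. Short-arm means are -0.08 and -0.17 in the 2 weaker classes and -0.66 and -0.64 in the 2 stronger ones.

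Other segments known to be low in CFAP20-KO in these data had ratios of like size, given as values only. Chromosome 7 from 105 Mb had a log2 ratio of -0.68 ± 0.04 (SD, n = 8 plates), chromosome 19 from 55 Mb -0.69 ± 0.18 and chromosome X from 150 Mb -0.64 ± 0.28. Each was lower in 8 of 8 plates.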

How the data were processed

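scEdU-seq sequences DNA labelled by a pulse of EdU in single sorted cells. Each row of the deposited files is a fragment with, per the file headers, its cell, chromosome, position, signed length and genotype (the treatment column), and no count or other scaled value; coordinates are GRCh38, per the submitters' processing notes. The sources used here name no aligner, filter or duplicate removal. Each fragment was taken as 1 molecule. Genotype came from the treatment column, since the genotype field of the labels has CFAP20-KO on every plate.

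Cells with at least 1000 autosomal molecules were ordered by the first correspondence-analysis axis of 500 kb bins (18.8% of the variation). Bins of 100 kb with a mean of at least 10 molecules per library, 5 Mb windows and genes were fitted over the whole genome with limma 3.58.1 voom (R 4.3.3), and 500 kb timing with limma; other steps used Python 3.11.15. P-values were adjusted by the method of Benjamini and Hochberg over all features, with a threshold of 0.05. Single values used an exact two-sided sign-flip test over plates, which pair the libraries per the labels: deviations of WT and CFAP20-KO libraries correlated by 0.142 on average within a plate (-0.0889 to 0.282) and by -0.0208 between plates, over 5654 bins. The fits were tested on simulated data. Repeated fragments (3.44% to 4.79% per plate) were kept. Depth was 1746074 to 4181841 fragments per plate.

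The named genes are those of the fixed groups, the 3 earliest, latest, lowest and highest per arm, and the genes beside the breakpoint; 1 gene that the rule names is not reported here. The segments, members and gene groups were chosen with earlier results of these data known. Alternatives were other cell minimums, equal weight per cell, repeated fragments counted once, other bins, limits and totals, timing orders, plate blocks and leaving out each plate.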

Additional observations from a re-analysis of the deposited data

Results flagged for a closer look

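In stage 2 of the 4 equal stages of ordered cells, 1 plate lay far from the others on the short-arm segment. Plate 4 had a log2 ratio of CFAP20-KO to WT of 0.17, while the other 7 plates lay between -0.80 and -0.46. Its knockout cells of that stage held 1321 short-arm molecules, 1.02% of the autosomal molecules of those cells, against 0.905% in its WT cells of that stage. Of these 1321 molecules, 579 came from 1 of the 32 knockout cells, which had 24259 autosomal molecules. The plate's ratio thus rests largely on 1 cell, and the ratio without it was not computed. Chance flags about 1 in 20 groups, and 33 groups were examined.

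The short-arm log2 ratio differed between stages 3 and 4 by -0.38 ± 0.19 (SD, n = 8 plates), as an exact permutation test of the difference showed (adjusted p = 0.0469). No other pair of stages passed. Cells of at least 5000 molecules numbered 41 WT and 43 CFAP20-KO in stage 3, and 200 and 208 in stage 4. The part of label strength in this contrast was not tested.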

How the results depend on the processing

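Equal weight per cell moved the short-arm log2 ratio to -0.34, its difference from the long arm to -0.32 and the WT short-arm level to 0.996. Leaving out 1 plate at a time gave a short-arm log2 ratio of -0.64 to -0.60 and 30 to 56 called short-arm bins of 100 kb. The difference in single-cell spread passed the threshold with a minimum of 10000 molecules (0.143, adjusted exact permutation p = 0.0469) and after removal of the course through S phase (0.179), and was 0.064 from the 16th to the 84th percentile; without 1 plate it lay between 0.092 and 0.143, and it passed without plate 1. For the later timing of the long arm the adjusted exact permutation p lay between 0.0586 and 0.75. With plate as a replicate block 73 short-arm bins were called in place of 64, and 23 short-arm genes in place of 21, and no window on either arm changed its call. 1 long-arm window was called higher in cells of at least 5000 molecules, with no minimum per window, and without plate 2, 4 or 8. The direction of the short-arm difference in molecules was the same under every alternative run. Depth limits single bins and small genes; intervals cover the 8 plates only.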
